A study of Mus musculus with 7 samples.

Results

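Glial fate and oligodendrocyte lineage factors were followed in sorted cells of the embryonic mouse cerebral cortex after knockdown of Trnp1, a nuclear protein of cortical progenitors. The 8 genes were chosen by name: the nuclear factor I (NFI) genes Nfia, Nfib and Nfix, the oligodendrocyte lineage factors Olig1, Olig2 and Sox10, and the receptor genes Egfr and Pdgfra. All 8 were measured, among 19938 genes in all. Where a gene had several probe sets with that gene as their only symbol, the one with the highest mean over the arrays was used.

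In both groups the cortex came from C57BL/6 embryos and received DNA, including green fluorescent protein, by electroporation at embryonic day 13. Green cells were collected with a cell sorter after 24 h, at a labelled age of embryonic day 14. The 3 samples labelled as Trnp1 knockdown received a construct against Trnp1. The 4 controls carry the genotype label WT, and the labels do not name their construct. Each sample is labelled a biological replicate and was hybridised to 1 Affymetrix array. The sort selects electroporated cells and what they produced within a day, and the number of animals per sample is not stated. The comparison asks what the 8 transcripts do within 1 day of the knockdown.

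NFI proteins are transcription factors that bind DNA as dimers, and in the developing forebrain they promote the switch of radial glia from neuron production to glia production. Olig1 and Olig2 are basic helix-loop-helix factors and Sox10 is an HMG box factor, and together they direct cells into the oligodendrocyte lineage. Olig2 is also made by progenitors of the ventral telencephalon. Egfr encodes the receptor of epidermal growth factor, which late progenitors gain before gliogenesis, and Pdgfra the receptor of platelet-derived growth factor that marks oligodendrocyte precursors and also fibroblasts. In the mouse cortex neurons are made in mid-gestation, and most glia follow around birth.

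The promoters of 5 of the 8 genes, Nfia, Nfix, Olig2, Egfr and Pdgfra, were in a RefSeq promoter table of build GRCm38.p6, with 8 windows between them. The 250 bases before each start site were searched on both strands for the short NFI motif TTGGC, and for the full palindrome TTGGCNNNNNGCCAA, which contains the short motif at each end. The short motif was found for 3 of these 5 genes, namely Olig2 with 2, Egfr with 1 and Nfix with 1 in each of 2 of its 4 windows. No window of these genes held the full palindrome. Of all 32851 promoter windows of this length, 41.5% held the short motif and 0.0365% the palindrome, so the short motif is a common match. The windows of Olig2 and Egfr are shown because the motif of the NFI factors occurs there before the start of another of the 8 genes, with the motif in capitals, 5′ to 3′ on the strand of the gene. The Olig2 window is chr16:91225300-91225549 on the plus strand and the Egfr window is chr11:16751953-16752202 on the plus strand.
Olig2: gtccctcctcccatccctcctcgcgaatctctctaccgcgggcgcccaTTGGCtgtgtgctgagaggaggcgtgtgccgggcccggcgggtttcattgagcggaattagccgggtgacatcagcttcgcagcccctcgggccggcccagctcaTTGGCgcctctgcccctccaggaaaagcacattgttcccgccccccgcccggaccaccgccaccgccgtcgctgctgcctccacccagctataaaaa
Egfr: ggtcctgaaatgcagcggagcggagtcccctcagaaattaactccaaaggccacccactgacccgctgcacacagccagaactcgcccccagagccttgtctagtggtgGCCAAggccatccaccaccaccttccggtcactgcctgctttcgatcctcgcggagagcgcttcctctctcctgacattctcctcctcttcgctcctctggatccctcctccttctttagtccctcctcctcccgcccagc
In the Egfr window the match is GCCAA, the reverse complement of TTGGC. A match of letters is a description and not evidence of binding.

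All values are log2 signals after RMA, a method that corrects background, brings arrays to a common distribution and summarises the probes of each set. The arrays carry no counts, so their number limits the precision. The deposited values lie between 1.97 and 13.7 and the array medians between 4.398 and 4.611. Trnp1 itself was at 4.80, 4.85 and 4.55 in knockdown arrays, against 5.07, 4.999, 5.24 and 5.22 in control arrays. All knockdown arrays were below all control arrays, as labelled, which held for 3.07% of all genes. The mean differed by -0.40 (SE 0.12), with p = 0.0286 by the exact two-sided permutation test over 35 splits, the smallest these splits can give. Knockdown samples were at 75.8% of control samples for Trnp1 (95% interval 62.1% to 92.4%). By limma its unadjusted p was 0.0127 and its adjusted p over all genes 0.825. Markers of the labelled tissue were present: 9 of the 10 genes of the dorsal telencephalon list were measured, and all 9 lay above the level of 99% of olfactory receptor genes, a family silent in most tissues. Trnp1 had a mean level of 4.96, close to that level of 4.71, and knockdown replicate 3 lay below 4.71.

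By limma over all 19938 genes, no gene passed an adjusted p of 0.05 in either direction (0% called), and the smallest adjusted p was 0.736. None of the 8 factors passed. None reached an unadjusted p of 0.05 in the comparison as reported, where 1158 of all genes did (5.81%, with 2.2% higher and 3.61% lower). That was 439 genes higher and 719 lower, and 183 higher and 1507 lower with array medians set equal. For the NFI genes this depended on the setting. By limma, the unadjusted p of Nfia was 0.0403 with equal array medians and 0.0235 without control replicate 4, and that of Nfib was 0.0202 and 0.0343 under the same settings and 0.0461 with an intensity trend. The unadjusted p of Nfix was 0.0439 without control replicate 2. With the replicate number as a block, which leaves control replicate 4 without weight, it was 0.0358 for Nfia, 0.0163 for Nfib and 0.021 for Nfix. Other settings gave larger unadjusted p-values by limma. With cyclic loess normalization between arrays they were 0.461 for Nfia, 0.226 for Nfib and 0.284 for Nfix. Without knockdown replicate 2 they were 0.340, 0.197 and 0.375. The adjusted p of the NFI genes was 0.579 or higher under each of these settings. For none of the 8 did all knockdown arrays lie on one side of all control arrays, which held for 5.67% of all genes, 2.59% higher and 3.07% lower. For 5 of the 8, the NFI genes, Olig1 and Egfr, all knockdown arrays were below the control mean, as for 19.5% of all genes. Of the 8 factors 6 had a lower mean in knockdown samples, where 50.2% of all genes did. The 3 NFI genes were lower by 0.26 to 0.48 log2 units, Olig2 was the factor with the largest positive difference at 0.35, and the other 4 differed by -0.18 to 0.14. In bulk samples fewer cells of a type and less RNA per cell cannot be told apart.

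**Figure D1:**
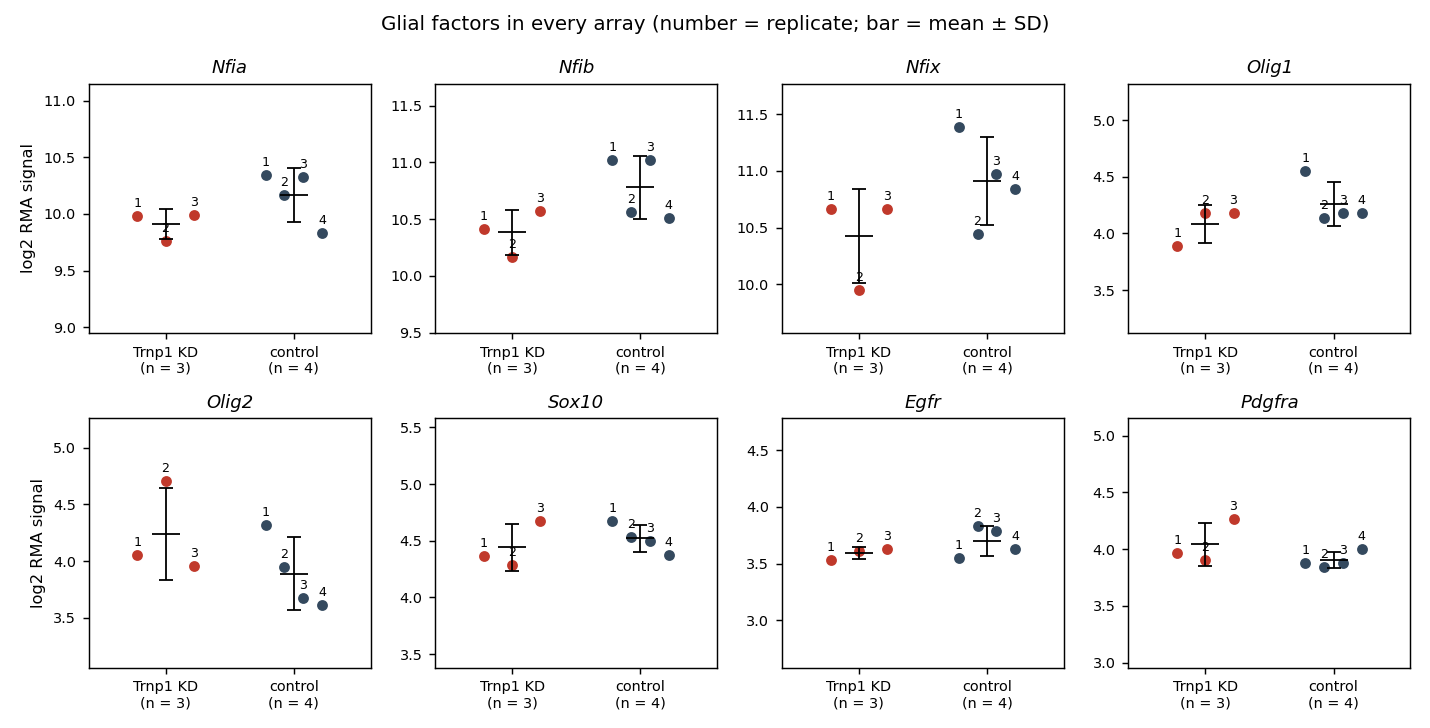
Log2 RMA signal of each of the 8 factors in every array, with Trnp1 knockdown on the left of each panel and control on the right; numbers beside the points are replicates and bars are mean ± SD. All panels span the same number of log2 units, and in every panel the groups overlap.

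The factors fell into a bright and a dim class. Over 1027 olfactory receptor genes the mean level had a 95th percentile of 3.87 and a 99th percentile of 4.71, and the brightest was at 6.83. Nfia, Nfib and Nfix, with mean levels of 10.06, 10.61 and 10.70 over the 7 arrays, lay above all of these genes in every array. The other 5 lay within the top of this background range. Sox10 had a mean level above 98.1% of the olfactory receptor genes, Olig1 above 97.1%, Olig2 above 96.1%, Pdgfra above 95.6% and Egfr above 89.6%. None of these 5 exceeded the 99th percentile in any array. Probe sets differ in how brightly they report a transcript, so these values say whether a signal stands out from background and do not rank the genes by abundance.

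**Figure D2:**
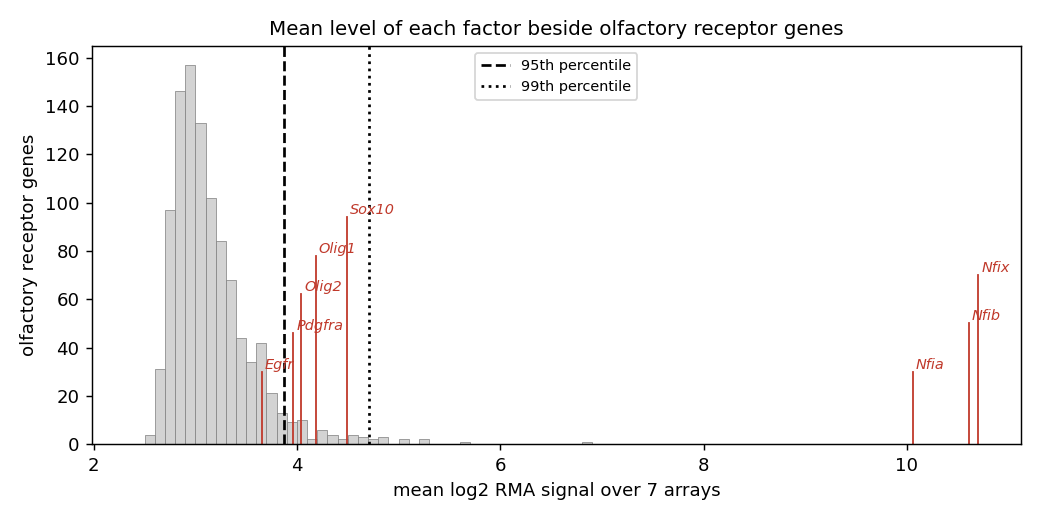
Histogram of the mean log2 RMA signal over 7 arrays of 1027 olfactory receptor genes, with the mean of each factor as a red line (line heights only separate the labels) and the 95th and 99th percentiles as dashed and dotted lines. The 3 NFI genes lie above 10, while the other 5 factors lie between 3.65 and 4.49, below the 99th percentile of 4.71.

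Nfia (Entrez 18027), a factor that starts glial development in the spinal cord and represses Notch effectors in the telencephalon, was at 9.98, 9.76 and 9.99 in knockdown arrays, against 10.34, 10.17, 10.33 and 9.83 in control arrays. Control replicate 4 was lower than 2 of the 3 knockdown arrays, so the groups overlapped. Nfia differed by -0.26 (SE 0.16, 95% interval -0.62 to 0.11), which puts knockdown samples at 83.7% of control samples (65.1% to 108%). Limma gave an unadjusted p of 0.139 and an adjusted p of 0.825.

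Nfib (Entrez 18028), which is needed for deep-layer neurons as well as for glia of the cortex, was at 10.41, 10.17 and 10.57 in knockdown arrays, against 11.03, 10.56, 11.02 and 10.51 in control arrays. Control replicates 2 and 4 were just below knockdown replicate 3, and the other control arrays lay above all knockdown arrays. Nfib had the smallest p of the 8 factors. It differed by -0.40 (SE 0.18, 95% interval -0.82 to 0.03), or to 75.9% of control samples (56.5% to 102%). By limma the unadjusted p was 0.0634 and the adjusted p 0.825.

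Nfix (Entrez 18032), which drives progenitors towards intermediate progenitors and later maturation, was at 10.67, 9.95 and 10.67 in knockdown arrays, against 11.39, 10.44, 10.97 and 10.84 in control arrays. Knockdown replicate 2 was the lowest array, and control replicate 2 lay below the other knockdown arrays. The mean difference was -0.48 (SE 0.27, 95% interval -1.11 to 0.14), with an unadjusted p of 0.111 and an adjusted p of 0.825 by limma. Without knockdown replicate 2 the difference of Nfix was -0.24.

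**Figure D3:**
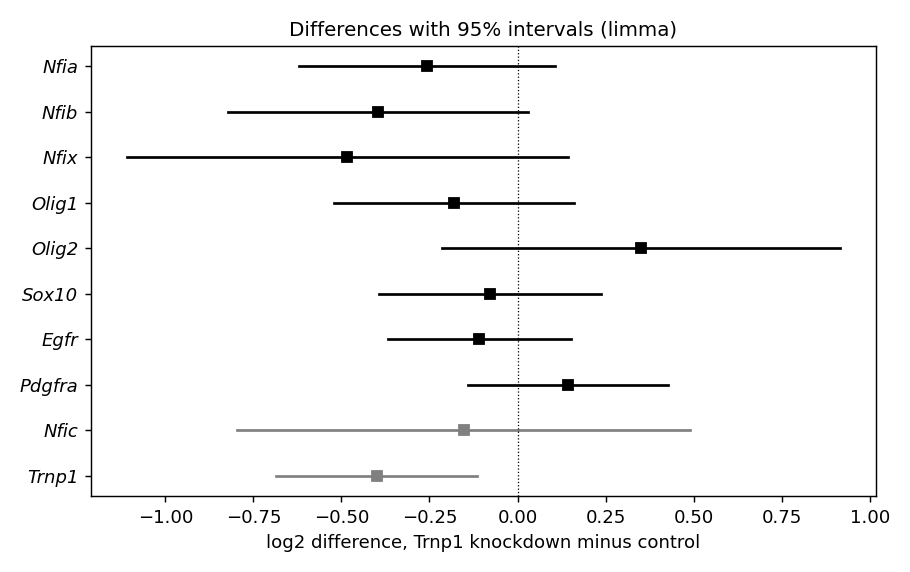
Log2 difference of Trnp1 knockdown minus control for the 8 factors (black) and for Nfic and Trnp1 (grey), with 95% intervals from limma as lines, n = 3 knockdown and 4 control arrays. The interval of every factor spans 0, with the NFI squares between -0.48 and -0.26 and Olig2 at 0.35.

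Second probe sets gave a further reading of the same RNA. The other probe set of Nfia was at 9.53, 9.21 and 9.41 in knockdown arrays, against 10.19, 9.52, 9.88 and 9.28 in control arrays, and that of Nfib was at 9.61, 9.53 and 10.10 against 10.66, 10.03, 10.30 and 9.96. They differed by -0.33 (SE 0.22) and -0.49 (SE 0.22), with an adjusted p of 0.820 and 0.819 by limma over all probe sets with 1 symbol. All 5 NFI probe sets had their highest value in control replicate 1 and their lowest value in knockdown replicate 2. Both probe sets of a gene share the sample, so they are not further replicates.

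Most bright genes were lower in knockdown samples, the NFI genes among them. Of the 849 genes with a mean level above 9, 80.8% were lower in knockdown samples, with a median difference of -0.17 and a first quartile of -0.31. By array, the median of these genes relative to the control mean was -0.19, 0.0093 and -0.30 in knockdown replicates 1, 2 and 3, against -0.044, 0.044, 0.072 and -0.081 in control replicates 1 to 4. Knockdown replicate 2, in which the NFI genes were lowest, was the knockdown array whose bright-gene median was closest to the control mean. In it Nfia, Nfib and Nfix deviated by -0.41, -0.61 and -0.96 from the control mean. In knockdown replicates 1 and 3 they deviated by -0.18 to -0.37. The part of the bright-gene shift in these values was not tested. Further scaling moved the NFI differences: with cyclic loess normalization between arrays they were -0.13, -0.27 and -0.36, and with array medians set equal, which shifts the median of all genes by -0.11, they were -0.36, -0.50 and -0.59.

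**Figure D4:**
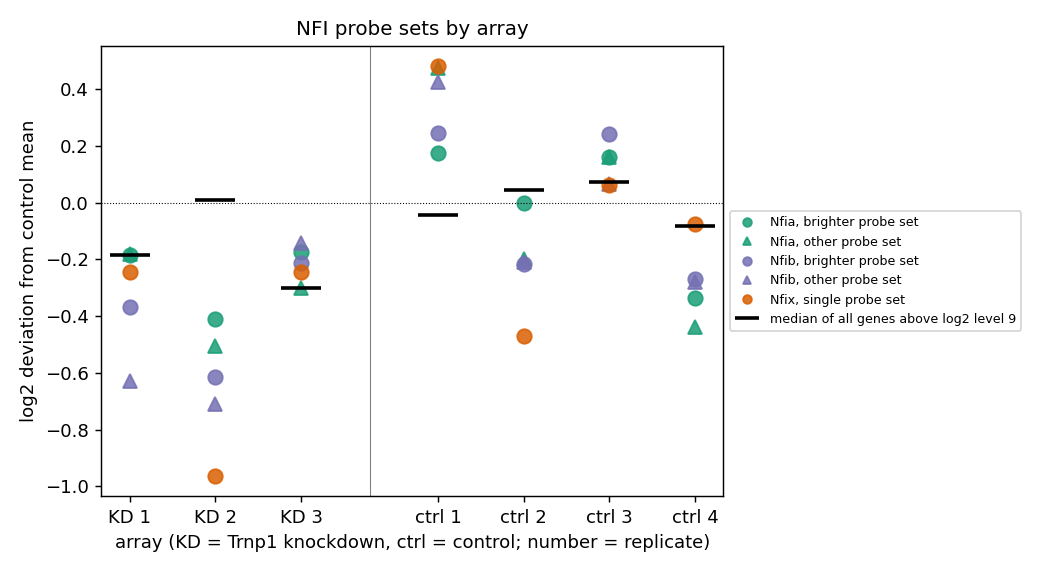
Log2 deviation from the control mean of the 5 NFI probe sets in each array (circles, the probe set used or the only one; triangles, the other probe set), with knockdown arrays on the left and the median of the 849 genes above log2 level 9 as black bars. All 5 probe sets are lowest in knockdown replicate 2, where the bar lies at 0.0093.

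Nfic, the remaining NFI gene, differed by -0.15 (SE 0.27), with 7.23, 6.79 and 6.86 in knockdown arrays against 6.52 to 7.72 in control arrays. Its order of arrays was another one, highest in control replicate 4. Of the 7 genes on a list of the NFI family and regulators of NFI expression, 6 were lower and 1 higher in knockdown samples, with a median of -0.26 where the median of all genes was -0.001. None passed over all genes. The list includes the 3 members, and its median is the difference of Nfia itself, so it is no further reading beside them. The median of all genes takes in dim genes, and genes with a mean level above 9 had a median of -0.17. Pou3f2, a POU factor of upper-layer neurons and progenitors, is named for the smallest p on the list. It was at 7.69, 8.08 and 8.09 in knockdown arrays, against 8.32, 8.50, 8.40 and 8.15 in control arrays. Its groups did not overlap, which held in this direction for 3.07% of all genes. It differed by -0.39 (SE 0.15, limma adjusted p = 0.825). Sox9, the SoxE factor that acts with Nfia in the spinal cord, differed by -0.10 (SE 0.16), and Pax6 by 0.03 (SE 0.29).

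Genes reported elsewhere as NFI targets did not move one way. Of 13 measured, 6 were higher and 7 lower, with a median of -0.013, and none passed over all genes. The list is mixed and includes Hes1 and Ezh2, which NFI factors repress. Its counts and median therefore cannot show whether NFI activity changed. Of the 13 genes, 10 lay above the 99th percentile of olfactory receptor genes. Leaving out knockdown replicate 1 gave a median of -0.094, and leaving out knockdown replicate 3 one of 0.10. Slc1a2, a glutamate transporter of astrocytes, is named for the smallest p on the list and differed by 1.202 (SE 0.43). It was at 5.01, 5.61 and 7.02 in knockdown arrays, against 4.83, 4.83, 4.47 and 4.58 in control arrays. Its groups did not overlap, which held in this direction for 2.59% of all genes. Knockdown replicate 3 was the highest array by far. Zcchc24, a target of Nfia and Sox9 in the spinal cord, differed by 0.58 (SE 0.26), and Hes1, a Notch effector repressed by Nfia, by -0.45 (SE 0.23). Mmd2, a further target in the spinal cord, differed by -0.19 (SE 0.16). Fabp7, a fatty acid binding protein of radial glia, differed by 0.23 (SE 0.20), and Ezh2, the Polycomb methyltransferase that NFI factors repress, by -0.24 (SE 0.23). Gfap, the intermediate filament of astrocytes, was at background in all arrays, between 3.16 and 3.52 in knockdown arrays and between 3.31 and 3.44 in control arrays.

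Olig2 (Entrez 50913) was at 4.05, 4.70 and 3.96 in knockdown arrays, against 4.32, 3.95, 3.68 and 3.61 in control arrays. Knockdown replicate 2 was the highest of all arrays and control replicate 1 the next, so the groups overlapped. The difference was 0.35 (SE 0.24, 95% interval -0.22 to 0.92), with an unadjusted p of 0.188 and an adjusted p of 0.828 by limma. It was 0.12 without knockdown replicate 2, 0.49 without knockdown replicate 3, and 0.027 with knockdown replicate 2 and control replicate 4 left out together.

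Genes of the ventral telencephalon and of interneurons, where Olig2 is made, were highest in the same array. The mean level of this list of 12 genes was 4.55, 5.87 and 4.33 in knockdown arrays, against 4.18, 4.11, 4.21 and 3.99 in control arrays. In knockdown replicate 2 the homeobox factors Dlx1, Dlx2 and Dlx5 were at 8.65, 8.48 and 8.73, where no other array exceeded 6.31 for any of them. Gsx2, the homeobox factor of lateral ganglionic eminence progenitors, was at 6.08 in that array and at 4.43 or below in the others. Of the 12 genes all were higher in knockdown samples, with a median of 0.74, and 0.22 without knockdown replicate 2. By limma 3 genes of the list were higher at an unadjusted p of 0.05, where 2.2% of all genes were. The groups did not overlap for 4 genes, all higher, as for 2.59% of all genes. None passed the adjusted threshold, and the list was chosen with earlier results of these data known. The part of these genes' cells in the values of Olig2 and of the NFI genes in that array was not tested. Nkx2-1, which defines the medial ganglionic eminence, was at 3.94 in it and between 3.79 and 4.19 in the others.

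Olig1 (Entrez 50914), the neighbour of Olig2 in the genome, was at 3.89, 4.18 and 4.18 in knockdown arrays, against 4.55, 4.14, 4.18 and 4.18 in control arrays. Of these, 4 arrays had the same value of 4.179, so the difference of -0.18 (SE 0.15) rests on knockdown replicate 1 and control replicate 1. Without control replicate 1 it was -0.084. Limma gave an unadjusted p of 0.253 and an adjusted p of 0.842. In knockdown replicate 2, where Olig2 was highest, Olig1 had this shared value of 4.179. A value within the background range cannot show whether Olig1 rose there.

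Sox10 (Entrez 20665), which activates myelin genes and also marks neural crest cells, was at 4.37, 4.28 and 4.68 in knockdown arrays, against 4.67, 4.53, 4.50 and 4.38 in control arrays. The groups overlapped, with knockdown replicate 3 just above control replicate 1 at the top. The difference of -0.078 (SE 0.13, adjusted p = 0.919 by limma) was 0.0015 without knockdown replicate 2. Other genes of the neural crest and Schwann lineage were low too. Of 7 measured, including Sox10, only Ngfr lay above the 99th percentile of olfactory receptor genes, and Foxd3, an early neural crest factor, differed by 0.08 (SE 0.13).

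Egfr (Entrez 13649) was at 3.53, 3.61 and 3.63 in knockdown arrays, against 3.55, 3.83, 3.78 and 3.63 in control arrays. All 7 arrays were below the 95th percentile of olfactory receptor genes. The difference of -0.11 (SE 0.11, 95% interval -0.37 to 0.15) had an unadjusted p of 0.358 and an adjusted p of 0.872 by limma. It was -0.064 without control replicate 2 and -0.21 with array medians set equal. A fall from a level within the background range could not be seen.

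Pdgfra (Entrez 18595) was at 3.96, 3.91 and 4.26 in knockdown arrays, against 3.88, 3.85, 3.88 and 4.01 in control arrays. Knockdown replicate 3 was the highest array, and control replicate 4 lay above the other knockdown arrays. The difference was 0.14 (SE 0.12, 95% interval -0.14 to 0.43), with an unadjusted p of 0.275 and an adjusted p of 0.847 by limma, and it was 0.034 without knockdown replicate 3. The mean level of 12 meningeal and fibroblast markers was 4.57, 4.74 and 4.06 in knockdown arrays, against 4.06, 3.91, 4.07 and 4.47 in control arrays, and their part in the values of Pdgfra was not tested.

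Other genes of the EGF receptor pathway were measured in 22 cases, Egfr included, of which 16 were higher and 6 lower, with a median of 0.062. None reached an unadjusted p of 0.05. The neuregulin gene Nrg3 differed by 0.66 (SE 0.30), Dusp6, a phosphatase induced by ERK signalling, by 1.12 (SE 0.62), the adaptor gene Shc1 by 0.51 (SE 0.29) and the ligand gene Nrg1 by 0.27 (SE 0.15). Dusp6 was at 8.48, 7.85 and 7.25 in knockdown arrays, against 6.66, 6.59, 5.45 and 8.25 in control arrays, so its spread between controls exceeded the difference. Endothelial and pericyte markers had a mean level of 6.79, 5.67 and 4.82 in those knockdown arrays, against 4.46, 4.42, 4.17 and 6.16 in the controls, and their part in these values was not tested. The receptor partners Erbb2, Erbb3 and Erbb4 differed by -0.15, -0.03 and 0.04, with an SE of 0.21, 0.10 and 0.10.

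The PDGF family had 6 genes, of which 4 were higher and 2 lower, with a median of 0.14. Pdgfa, the ligand that oligodendrocyte precursors depend on, lay between 5.99 and 6.21 in knockdown arrays and between 6.09 and 6.32 in control arrays, a difference of -0.056 (SE 0.11). The pericyte receptor gene Pdgfrb was at 6.07, 5.05 and 4.43 in knockdown arrays, against 4.35, 4.16, 4.36 and 4.96 in control arrays (0.73, SE 0.38). Its ligand gene Pdgfb was at 6.37, 5.22 and 5.43 against 4.75, 4.89, 4.73 and 6.32 (0.50, SE 0.46). Pdgfrb is itself on the endothelial list. Pdgfb was highest in knockdown replicate 1 and control replicate 4, the arrays in which that list was highest, and their part was not tested. With control replicate 3 left out the PDGF median became 0.023, and with control replicate 4 left out 0.26.

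Markers of mature oligodendrocytes were largely at background. Of 13 mature oligodendrocyte markers 1, Nkx6-2, exceeded the 99th percentile of olfactory receptor genes, and 4 were higher and 9 lower, with a median of -0.033. The mean level of that list lay between 4.07 and 4.14 in knockdown arrays and between 4.05 and 4.20 in control arrays. Of 16 oligodendrocyte precursor markers, 4 of them members, 6 exceeded that percentile. Bcan, a proteoglycan of precursors and astrocytes, did so through single arrays, at 5.32, 4.30 and 4.20 in knockdown arrays, against 7.05 in control replicate 1 and 4.37 to 4.49 in the other control arrays. The others included genes also used by other progenitors or neurons, namely Ptprz1 (0.69, SE 0.37), Cacng4 (-0.02, SE 0.44), Sox6 (-0.06, SE 0.20) and Sox5. Sox5, a SoxD factor of deep-layer neurons that also delays oligodendrocyte maturation, was at 7.62, 7.60 and 7.85 in knockdown arrays, against 7.22, 7.49, 7.51 and 7.37 in control arrays. Sox5 had the smallest p on the list, with a difference of 0.29 (SE 0.12, limma adjusted p = 0.825). Its groups did not overlap, which held in this direction for 2.59% of all genes. The list had 8 genes higher and 8 lower, with a median of 0.016. Other precursor genes were dim, among them Cspg4, which pericytes also make (4.28, 4.20 and 4.00 in knockdown arrays, against 4.09, 4.23, 4.05 and 4.29 in control arrays) and Nkx2-2 (4.20, 3.99 and 4.12 against 4.18, 4.02, 3.99 and 3.76).

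Astrocyte markers held both kinds of gene. Of 16 measured, 10 exceeded the 99th percentile, 9 were higher and 7 lower, with a median of 0.068. Aldoc, a glycolytic enzyme of astrocytes and radial glia, differed by -0.57 (SE 0.22), and Sparcl1, a matrix protein that vessels also make, by 1.77 (SE 0.80). Fgfr3, a receptor of radial glia and astrocytes, differed by 0.73 (SE 0.35), and the bright genes Apoe, Glul and Ttyh1 by 0.73 (SE 0.68), -0.61 (SE 0.34) and 0.098 (SE 0.20). The spread of Apoe, Glul and Sparcl1 over the controls went with microglial and endothelial markers in control replicate 4, and their part was not tested. Aqp4, the water channel of mature astrocytes, did not exceed 3.64 in any array.

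Gliogenic signalling genes had 11 higher and 13 lower of 24, with a median of -0.024. The Notch ligand gene Jag1 had the smallest p, at 5.84, 5.90 and 5.39 in knockdown arrays against 4.84, 5.39, 4.79 and 5.12 in control arrays (0.67, SE 0.20, limma adjusted p = 0.825). Notch1 differed by 0.55 (SE 0.24) and the BMP receptor gene Bmpr1b by 0.32 (SE 0.14). Of 16 relatives of the SoxE and basic helix-loop-helix members, 6 were higher and 10 lower, with a median of -0.097. The E-protein gene Tcf12, a dimer partner of Olig factors, differed by -0.39 (SE 0.17) and Id2, an inhibitor of such dimers, by -0.53 (SE 0.24). Id1 differed by -0.57 (SE 0.30) and Olig3, the third Olig gene, which lay at background, by 0.30 (SE 0.16).

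**Figure D5:**
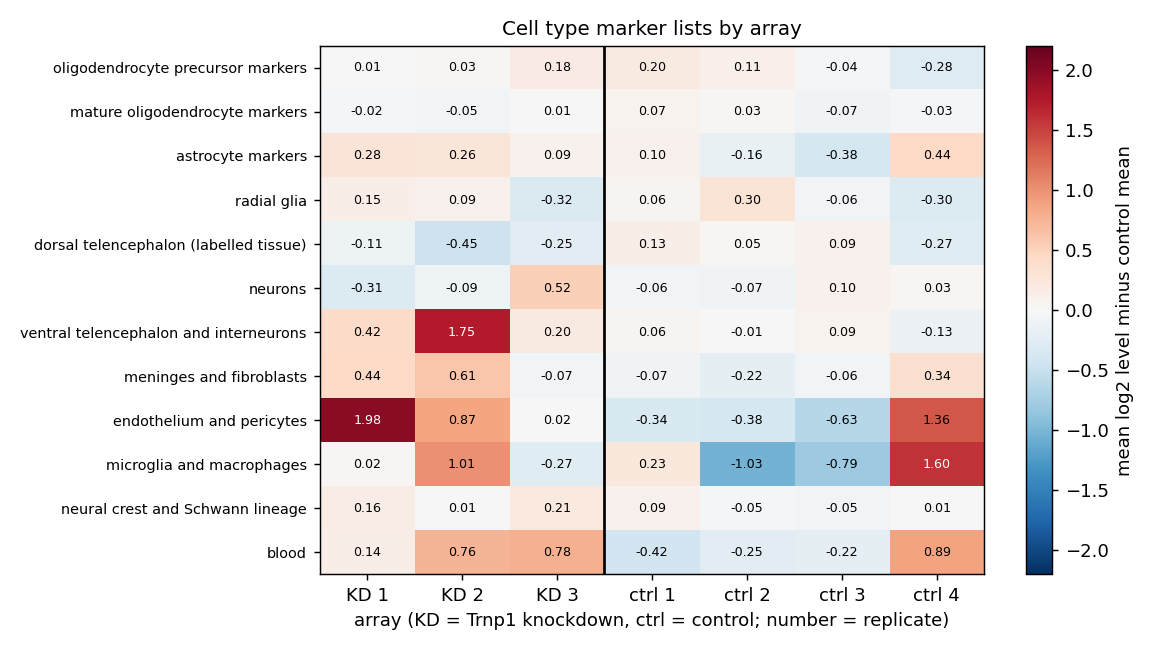
Mean log2 level of 12 cell type marker lists in each array minus the control mean of that list, with knockdown arrays on the left. Ventral telencephalon genes stand at 1.75 in knockdown replicate 2 and endothelial genes at 1.98 in knockdown replicate 1 and 1.36 in control replicate 4, while the oligodendrocyte precursor list runs from -0.28 in control replicate 4 to 0.20 in control replicate 1.

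Radial glia markers, all 12 of them above the 99th percentile, had a mean level between 8.08 and 8.55 in knockdown arrays and between 8.10 and 8.70 in control arrays, and 6 were higher and 6 lower. Prom1, a membrane protein of these cells, differed by -0.47 (SE 0.17) and Vim, their intermediate filament, by 0.29 (SE 0.17). Neuronal markers lay between 7.70 and 8.52 in knockdown arrays and between 7.93 and 8.10 in control arrays, with a median difference of 0.13. Of 10 measured, 1 was higher and 3 lower at an unadjusted p of 0.05 by limma, where 2.2% and 3.61% of all genes were. Microglial markers lay between 6.98 and 8.25 in knockdown arrays and between 6.21 and 8.84 in control arrays, although the samples were sorted for green cells. Blood markers lay between 7.73 and 8.37 in knockdown arrays and between 7.17 and 8.47 in control arrays. The dorsal telencephalon list, on which 7 of 9 genes were lower, had its lowest level in knockdown replicate 2, at 8.82, where the knockdown arrays reached up to 9.16 and the control arrays lay between 9.01 and 9.40. Mitotic genes, of which all 13 were lower, lay between 7.32 and 8.73 in knockdown arrays and between 8.05 and 9.02 in control arrays. Hypoxia genes, of which 11 of 12 were higher, lay between 7.27 and 8.37 in knockdown arrays and between 6.83 and 7.27 in control arrays. By limma 6 of the 12 were higher at an unadjusted p of 0.05, where 2.2% of all genes were. The lists were chosen with earlier results of these data known, so such counts only describe them. The part of all these cells and genes in the values of the 8 factors was not tested.

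Among the brighter 50% of genes, those most like each NFI gene over the 7 arrays, by Pearson r, were Pdrg1 (0.95), Rprm (0.95) and Trim44 (0.94) for Nfia. For Nfib they were Smpd3 (0.97), Rnf157 (0.96) and Sstr3 (0.96), and for Nfix they were Snx21 (0.98), Mypop (0.98) and Plxna2 (0.97). For Olig2 they were Rnf144a (0.96), Uckl1 (0.96) and Lrp6 (0.95), with no Dlx gene among the first 3. For the other dim factors the closest genes were Gtf3a (0.98) for Olig1, Oxt (0.99) for Sox10, Sclt1 (0.99) for Egfr and Prss27 (0.99) for Pdgfra. With 9567 or more candidates and only 7 arrays that also share 2 conditions, such values describe these arrays only.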

How the data were processed

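The authors deposited 1 log2 value per probe set and array. The submitters' processing notes name RMA and version 1.2 of Affymetrix Expression Console. The build behind the array was not given in the sources used here. Per the labels' protocols, RNA was amplified before labelling, which can add spread between small samples. Of 35556 probe sets, 21789 had 1 gene symbol in an array annotation table, 1621 several and 12146 none, and 21698 were updated through Entrez identifiers in a RefSeq table of GRCm38.p6, which gave 19938 genes.

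Knockdown and control were compared by limma 3.58.1 (lmFit and eBayes without trend) in R 4.3.3, two-sided, with Benjamini-Hochberg adjustment over all genes, a threshold of 0.05 and no block. P-values measure the spread between labelled biological replicates. On simulated data of this comparison (5 runs over 19938 genes), a change of 1 log2 unit was recovered for 48.4% of changed genes and one of 2 units for 84.6%. False calls averaged 6.6 a run. The simulated noise was normal and independent between genes, without shifts that many genes of an array share. These rates need not hold for the real arrays. The 8 factors and the 20 gene lists were chosen with earlier results of these data known. Named genes are the 8 factors, Trnp1, Nfic, up to 4 genes of each list by smallest p and, for cell type lists, 4 by level, and the 3 genes most like each factor. Sox9, Pax6, Ezh2, Gfap, Nkx2-1, Erbb2, Erbb3, Erbb4, Pdgfa, Cspg4, Nkx2-2, Aqp4 and Bcan were added for their roles or after their values were seen. Alternatives were other moderation, array weights, scaling, filters, probe set rules, a replicate block and arrays left out.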

Additional observations from a re-analysis of the deposited data

Results flagged for a closer look

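Among 103 genes named or listed here that were checked for a single control array far from the other 3, 13 stood apart (12.6%). The cut-off is one that about 1 in 20 genes with normal spread would pass. Some of the 103 genes were named by p or after their values were seen. The share over all genes is not given here, so an excess over chance is not shown. Of the 8 factors only Olig1 stood apart, at 4.55 in control replicate 1 against 4.14 to 4.18 in the others. That array is behind much of its difference.

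Control replicate 1 also stood apart for Bcan, a proteoglycan of oligodendrocyte precursors and astrocytes, at 7.05 against 4.37 to 4.49, for Cldn11, a myelin claudin, at 4.90 against 4.57 to 4.62, and for the cortical factor Lhx2 at 10.90 against 10.33 to 10.41. Control replicate 4 stood apart for 7 genes. It was high for the glutamine synthetase gene Glul (10.51 against 9.58 to 9.68), for Pdgfb (6.32 against 4.73 to 4.89), Pdgfd (3.72 against 3.06 to 3.13), the growth factor gene Igf2 (9.20 against 5.08 to 5.52) and the pericyte gene Rgs5 (7.49 against 4.47 to 4.96). It was low for Sox6 (7.02 against 7.76 to 7.77) and the neuronal tubulin gene Tubb3 (10.53 against 10.66 to 10.68). Nrg1 was low in control replicate 3 (5.81 against 6.23 to 6.29). Emx1 was at 7.91 in control replicate 2 and 7.85 in each of the others, a gap of little size.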

How the results depend on the processing

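No gene passed an adjusted p of 0.05 under any alternative run, nor one of 0.1, and the smallest adjusted p was 0.168, without knockdown replicate 2. The count at an unadjusted p of 0.05 depended on the setting, with 439 genes higher and 719 lower in the comparison as reported, 183 and 1507 with equal array medians, and 882 and 1522 without knockdown replicate 2. Of the 8 factors, Nfia, Nfib, Nfix, Olig1, Olig2, Egfr and Pdgfra kept their sign under every alternative run for them. Sox10 ranged from -0.19 to 0.0015 with 1 array left out. With the dimmest 50% of genes left out, Olig1, Olig2, Sox10, Egfr and Pdgfra were not tested. Above the 99th percentile of olfactory receptor genes lay 3 factors, against 7 above the 95th. The labels do not say whether replicate numbers mark a shared litter or day. Deviations of same-numbered arrays correlated at 0.020, -0.047 and 0.087, and so few arrays cannot decide whether the samples are paired. No knockdown array correlated best with the control array of its own number. With the replicate number as a block, Nfia, Nfib and Nfix differed by -0.37, -0.49 and -0.51, Olig1 by -0.21, Olig2 by 0.26, Sox10 by -0.12, Egfr by -0.13, Pdgfra by 0.18 and Trnp1 by -0.37, again with 0 genes past the threshold and 1486 at an unadjusted p of 0.05, against 1158. The block gives no weight to the unpaired control replicate 4. Under it the unadjusted p was 0.0358 for Nfia, 0.0163 for Nfib and 0.021 for Nfix, against 0.139, 0.0634 and 0.111 without the block, and for Trnp1 it was 0.0784, against 0.0127. List medians moved as follows, and the cause was not tested. With equal array medians they were -0.14 for mature oligodendrocyte markers, -0.044 for the EGF receptor list and -0.027 for the neural crest list, and after a further quantile normalization -0.11 for mature oligodendrocyte markers. With 1 array left out they ranged from -0.084 to 0.18 for gliogenic signalling, 0.017 to 0.12 for the EGF receptor list, -0.22 to -0.069 for SoxE and basic helix-loop-helix relatives, -0.23 to 0.34 for neurons, 0.48 to 0.98 for hypoxia genes, 0.023 to 0.26 for the PDGF family and -0.094 to 0.10 for NFI targets. With control replicate 4 and knockdown replicate 2 left out together, chosen after seeing the data, they were 0.11 for the EGF receptor list, -0.24 for radial glia and 1.08 for hypoxia genes. Signals near background limit what can be said of Olig1, Olig2, Sox10, Egfr and Pdgfra.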
